A study of Mus musculus with 4 samples.

Results

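Heat shock proteins and chaperonins were examined in testes of hypogonadal (hpg) mice, which lack gonadotropin-releasing hormone and so make little testosterone of their own. The members are all probe sets whose single gene symbol in the platform annotation begins as a heat shock protein (Hsp), a J protein (Dnaja, Dnajb or Dnajc) or a chaperonin subunit (Cct, Tcp1). The rule found 79 of 12422 probe sets, for 56 of the 8251 genes with a symbol of their own. A filter on low signal kept 69 of them, for 54 genes, among 7453 probe sets kept in all. It removed the only probe sets of Hspb1 and Dnajb5, and 1 of several for Cct6a, Dnajb13, Dnajc1, Dnajc3, Hsp90aa1, Hspb2, Hspb8 and Tcp1. A further 2 probe sets carry both Dnajc19 and its pseudogene and were left out by the rule. The rule also takes in Hspb11, an intraflagellar transport protein, and Hspbp1, which releases nucleotide from HSP70. Both bear the name without being heat shock proteins.

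Total testis RNA was measured on 4 one-colour arrays. All 4 came from hpg mice that first received testosterone proprionate (the labels' spelling of propionate) and then had it withdrawn. The first course is given as 2 weeks on all but T+T replicate 1, whose label states no duration. T+O, with 1 array, is from mice left withdrawn. T+T has 3 arrays, numbered in part by accession order, and the description of replicate 1 adds testosterone proprionate for 4 hours after the withdrawal. For T+T replicates 2 and 3 the descriptions stop at the withdrawal, so that only the title places them in T+T. Age, number of animals and pooling are not given in the sources used here, so p-values measure only the spread between these samples, which may be technical.

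Chaperones bind unfolded proteins and help them fold without aggregating. HSP70 proteins hold short hydrophobic stretches in a cycle driven by ATP. J proteins deliver clients and start that cycle, while HSP110 and other exchange factors reset it. HSP90 acts later on a narrower set of clients, among them steroid receptors such as the androgen receptor, and the ring-shaped TRiC/CCT chaperonin folds actin and tubulin. Male germ cells express their own isoforms, of which the best known is Hspa2, a partner of the synaptonemal complex without which meiosis stops. Many other members are induced by heat through heat shock factors, or by unfolded protein in the endoplasmic reticulum.

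These control routes can be read as letters in some members' promoters. RefSeq start sites of assembly GRCm38.p6 were matched for 48 of the 56 member genes, and each window ran from 250 bases before to 50 after the start. The heat shock element was searched as GAANNTTCNNGAA and, for the other strand, TTCNNGAANNTTC. It occurred in 4 of the 48 genes (8.33%), against 0.662% of 27025 genes with a window. The endoplasmic reticulum stress element, searched as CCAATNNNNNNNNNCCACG and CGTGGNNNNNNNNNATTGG, occurred in 3 of the 48 (6.25%), against 0.137% of all genes. The matching stretches are shown because the results return to these genes below. Capitals mark the matched motif, each stretch runs 5′ to 3′ on the gene's own strand, and overlapping matches are joined. A match is a description of the letters and no evidence of binding.
Hspe1: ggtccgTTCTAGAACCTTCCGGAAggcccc
Hsph1: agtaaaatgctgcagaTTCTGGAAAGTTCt
Dnajb6: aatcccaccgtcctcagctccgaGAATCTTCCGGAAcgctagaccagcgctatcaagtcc
Hspa5: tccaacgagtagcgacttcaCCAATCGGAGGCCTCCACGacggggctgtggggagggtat
Dnajc3: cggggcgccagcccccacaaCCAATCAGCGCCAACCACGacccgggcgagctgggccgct
Hsp90b1: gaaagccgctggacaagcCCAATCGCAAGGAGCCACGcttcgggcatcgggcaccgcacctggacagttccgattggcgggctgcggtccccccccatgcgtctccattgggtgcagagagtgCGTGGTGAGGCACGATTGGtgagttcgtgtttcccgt

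The Hspe1 stretch (chr1:55088053-55088082, plus strand) lies 95 to 66 bases before the Hspe1 start. It lies between the divergent start sites of Hspd1, which encodes the mitochondrial chaperonin ring HSP60, and Hspe1, which encodes its lid HSP10. Read from the Hspd1 side, the same bases give 2 overlapping matches too. The Hsph1 stretch (chr5:149636287-149636316, minus strand) lies 20 to 49 bases after a start site. The Dnajb6 stretch (chr5:29735829-29735888, plus strand) lies 69 to 10 bases before one. Among the stress elements, that of Hspa5 is at chr2:34772005-34772064 on the plus strand and that of Dnajc3 at chr14:118937807-118937866 on the plus strand. The Hsp90b1 stretch, at chr10:86705515-86705674 on the minus strand, holds 2 matches in opposite orientation.

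The arrays differed in overall level and were scaled to a common trimmed mean. All values below are scaled signals, and differences are T+T minus T+O on the log2(signal + 10) scale, which understates the change of dim probe sets. Testis identity was checked on marker lists. Spermatid markers summed to 30334 on the T+O array and to between 30061 and 38506 on the T+T arrays. Spermatocyte markers summed to 5744 against 5103 to 6549, and Sertoli markers to 2671 against 2586 to 3039. The spermatocyte sum was mostly Ldhc, at 5073 in T+O, and the Sertoli sum mostly Clu, at 1589 and 783 on its probe sets. These sums therefore say little about the other markers of those lists. Epididymis markers summed to 73.1 against 47.4 to 82.9. Sums of several lists did not overlap between groups. Of all kept probe sets, 29.5% were higher and 23.7% lower on every T+T array, so such gaps were common among single probe sets too. Peritubular myoid markers had 431 in T+O against 519.9 to 536, and macrophage markers 268 against 312 to 409. Endothelial markers had 238 against 255 to 320 and red blood cell markers 544 against 563 to 620.5. Spermatogonia markers had 668 against 586 to 649 and adipose markers 350.0 against 242 to 328. The spermatogonia, adipose and endothelial gaps each rested largely on a single probe set. Dazl 94750_at had 166 against 63.5, 79.2 and 103, and Stra8 was also lower, while Kit and Uchl1 were higher on every T+T array. Lipe had 260 against 229, 141 and 187, while Adipoq and Fabp4 overlapped. Eng had 108 against 163, 141 and 141, and Cd34 was also higher, while Cdh5 was lower on every T+T array. Leydig markers, at 395 against 331 to 441, overlapped. No marker probe set was at 0 on any array, and the part of cell makeup in the differences below was not tested. In whole testis, fewer cells of a type and less RNA per cell cannot be told apart. The 3′ to 5′ signal ratio was lower on every T+T array for 3 of 5 controls: for Gapdh it was 1.20 in T+O and 0.844 ± 0.039 (SD, n = 3) in T+T, for pyruvate carboxylase 3.76 against 1.90 ± 0.12, and for the transferrin receptor 9.5 against 2.68 ± 1.01. It overlapped between groups for Actb, at 1.53 against 1.41 ± 0.24, and for 18S RNA, at 3.18 against 3.31 ± 1.25. The part of RNA quality in any difference between T+T and T+O was not tested.

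No member passed the test in T+T against T+O (limma, lowest adjusted p = 0.15), where 0.0268% of all kept probe sets passed. At an unadjusted p under 0.05 limma gave 9 of the 69 members, 8 of them lower in T+T and 1 higher, beside 7.8% of all probe sets. On every T+T array at least 1.5-fold below T+O were 2 members, beside 2.21% of all probe sets, and both are probe sets of Dnajc2. None was at least 1.5-fold above T+O on every T+T array, beside 1.82%. By sign alone, 47 members lay below and 22 above 0, with a median of -0.10. Of all 7453 kept probe sets, 3448 lay below and 4005 above 0, with a median of 0.03. All 3 T+T arrays lay below T+O for 28 members, beside 23.7% of all probe sets, and above it for 12, beside 29.5%. The groups overlapped for 29. The filter lets a member pass through the group in which it is bright, so these counts describe the members that passed and no others.

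**Figure D1:**
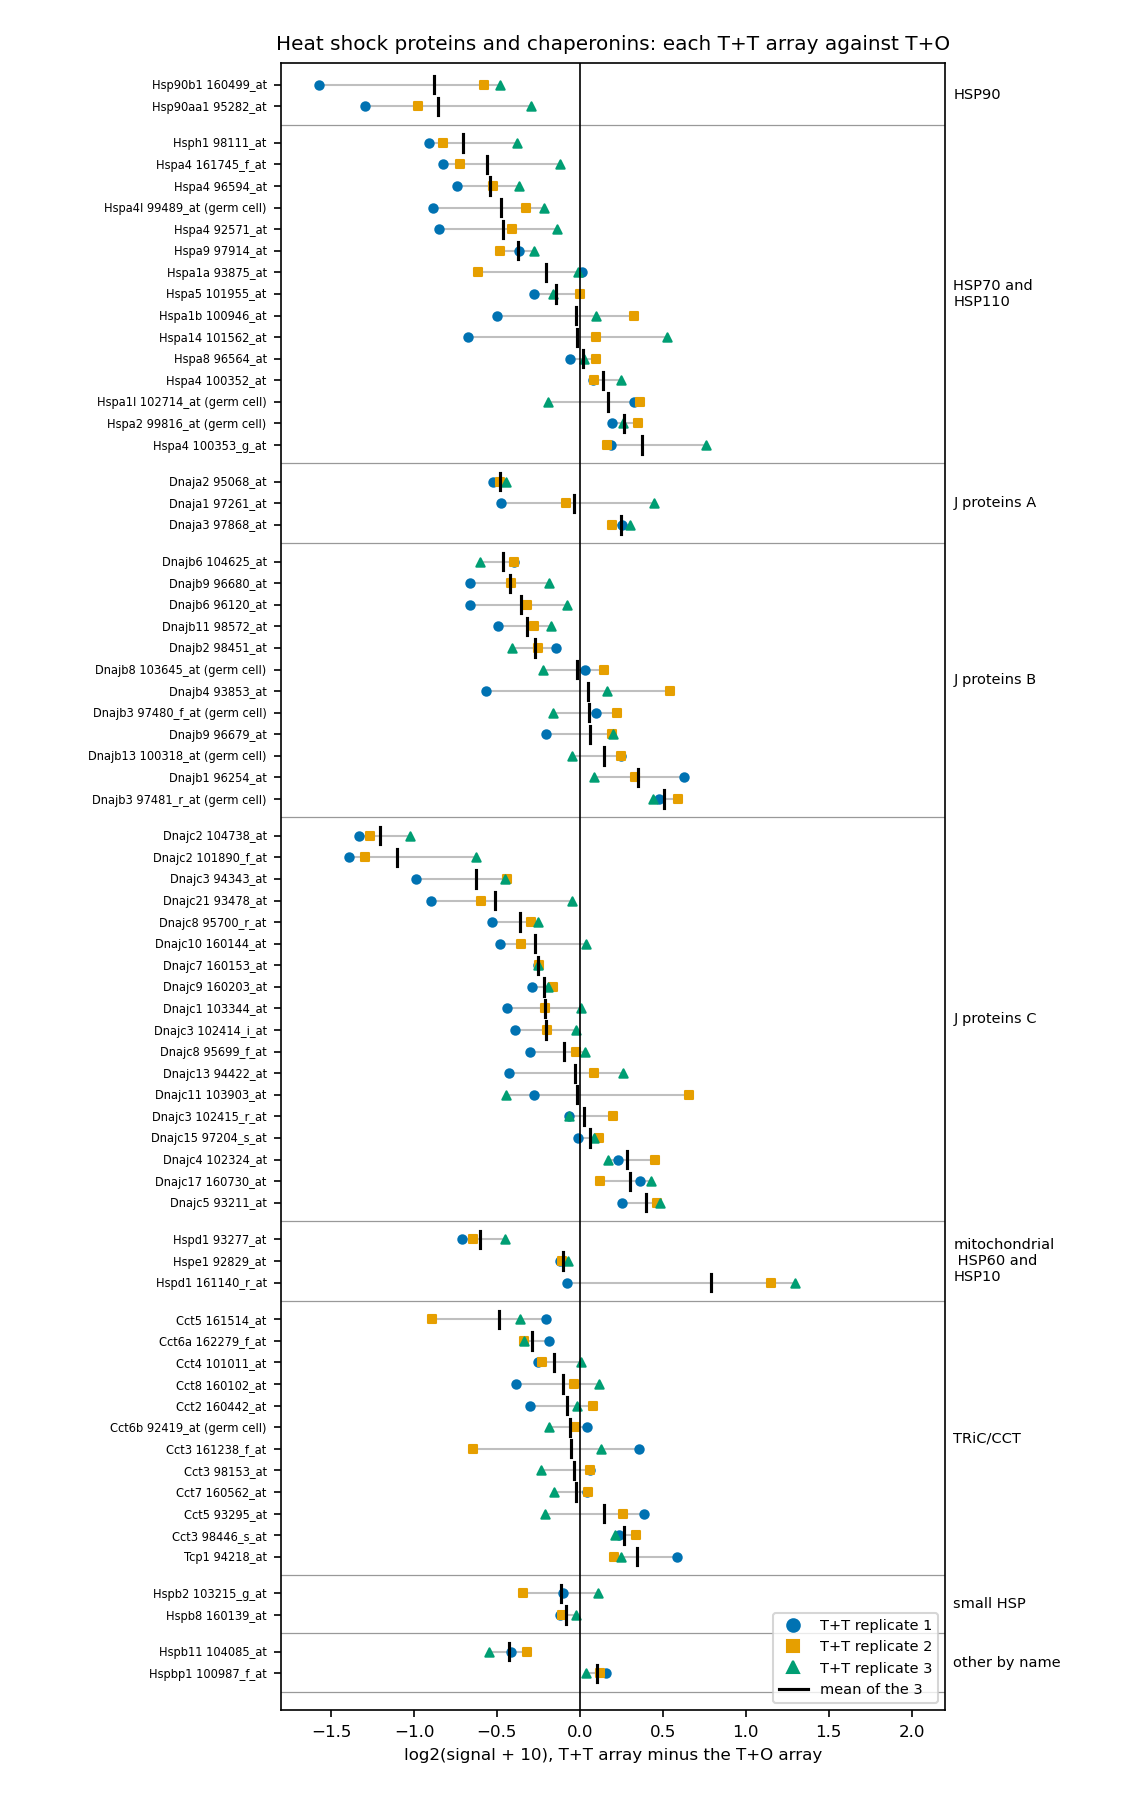
Difference of each T+T array from the T+O array for the 69 kept probe sets, by family, in log2(signal + 10). Points are the 3 T+T arrays and the black tick is their mean. Both Dnajc2 probe sets and both HSP90 genes lie left of 0 on all 3 arrays, and germ-cell members lie on both sides of it.

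Dnajc2 showed the widest gap of any member. It encodes a J protein of the ribosome, which with the HSP70 protein Hspa14 receives new chains as they emerge. Probe set 104738_at had 550.2 on the T+O array and 212, 224 and 266 on T+T replicates 1, 2 and 3. Probe set 101890_f_at, whose name marks a sequence family, had 475 against 175, 188 and 304. On both probe sets every T+T array was well below T+O. The differences were -1.21 ± 0.20 (SE; limma, adjusted p = 0.15) and -1.10 ± 0.30 (limma, adjusted p = 0.35). Without T+T replicate 1, the first reached -1.14 with an adjusted p of 0.025 in limma, and it was the only member to pass under any setting tried. Its ribosomal partner Hspa14 was dim, at 33.1 in T+O and 17.0, 36.1 and 51.9 in T+T, and the groups overlapped. Dnajc21, which acts in ribosome assembly, had 114 against 56.5, 71.9 and 110. Its T+T replicate 3 was close to T+O, and the difference was -0.51 ± 0.33 (SE), or -0.32 without T+T replicate 1.

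Both HSP90 genes that passed the filter lay below T+O on every T+T array, with wide spread among those arrays. Hsp90aa1, the inducible cytosolic HSP90 that is abundant in germ cells, had 4065 in T+O and 1651, 2062 and 3304 in T+T. Hsp90b1, its counterpart in the endoplasmic reticulum, had 1467 against 486, 978 and 1046. In both, T+T replicate 1 was the lowest and replicate 3 the nearest to T+O. The differences were -0.86 ± 0.34 (SE; limma, adjusted p = 0.60) for Hsp90aa1 and -0.88 ± 0.39 (limma, adjusted p = 0.66) for Hsp90b1. Without T+T replicate 1, Hsp90b1 was at -0.53. A second Hsp90aa1 probe set was under the filter, at 11.9 in T+O. Partners of HSP90 were spread around 0. None of 23 kept probe sets of HSP90 and HSP70 co-chaperones passed in limma, 15 lay above 0 and 8 below. They ranged from -0.60 for the cyclophilin Ppid to 0.61 for a probe set of St13, which links HSP70 to HSP90. Fkbp5, an immunophilin of steroid receptor complexes known to respond to androgen, had 167 in T+O and 162, 210 and 173 in T+T, and its groups overlapped.

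**Figure D2:**
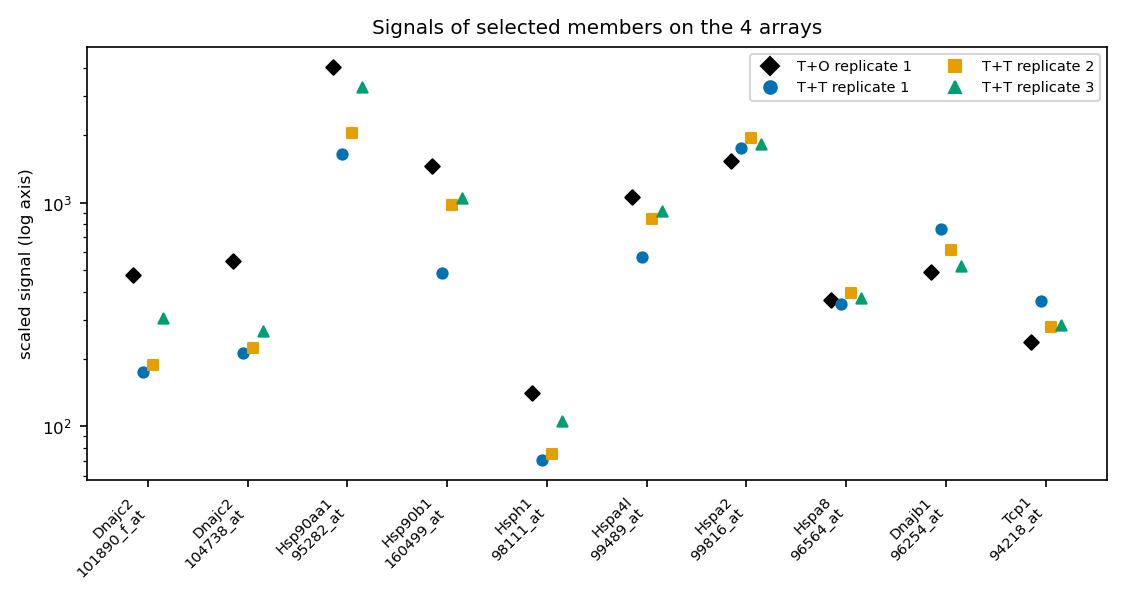
Scaled signal of 10 member probe sets on the 4 arrays, on a log axis. T+O is the highest of the 4 for both Dnajc2 probe sets, Hsp90aa1, Hsp90b1, Hsph1 and Hspa4l, and the lowest for Hspa2, Dnajb1 and Tcp1.

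The HSP70 and HSP110 family had 15 probe sets, all kept, with 10 below 0 and 5 above and a median of -0.15. Hsph1, the inducible HSP110, stood lowest, at 141 in T+O and 70.2, 75.2 and 106 in T+T. All 3 T+T arrays were below T+O, with a difference of -0.71 ± 0.27 (SE; limma, adjusted p = 0.58). Hspa8, the constitutive cytosolic HSP70, had 368 against 352, 394 and 374, so that T+O lay within the T+T values. Its difference was 0.02 with a 95% interval from -0.39 to 0.43, which leaves room for changes of up to that size, and it turned to -0.01 when arrays were scaled to their medians. Hspa5, which encodes the endoplasmic reticulum chaperone BiP, had 996 against 822, 998 and 888. Hspa9, the mitochondrial HSP70, had 672 against 519, 478 and 553. All its T+T arrays lay below T+O, at a difference of -0.38 ± 0.18 (SE; limma, adjusted p = 0.68). Of the heat-inducible pair, Hspa1a had 60.7 against 61.4, 36.2 and 60.3. Hspa1b was dim, with 22.5 against 13.0, 30.8 and 24.7. Both overlapped T+O. Their coding sequences are near identical, so that their probe sets cannot be fully told apart.

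Hspa4, a second HSP110, was measured by 5 probe sets that did not share a direction. Probe sets 96594_at, 161745_f_at and 92571_at differed by -0.54, -0.56 and -0.47. Probe sets 100353_g_at and 100352_at differed by 0.37 and 0.14. The first, 96594_at, had 159 in T+O and 91.3, 107 and 121 in T+T, while 100353_g_at had 292 against 334, 328 and 501. Without T+T replicate 1, 92571_at was at -0.28, and without replicate 3, 100353_g_at was at 0.18. The direction for Hspa4 is therefore uncertain. Of 10 genes with more than 1 kept probe set, 6 had probe sets of opposite sign. These were Hspa4, Hspd1, Cct3, Cct5, Dnajb9 and Dnajc3. The 4 with a single sign were Dnajc2, Dnajb6 and Dnajc8 below 0 and Dnajb3 above it.

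**Figure D3:**
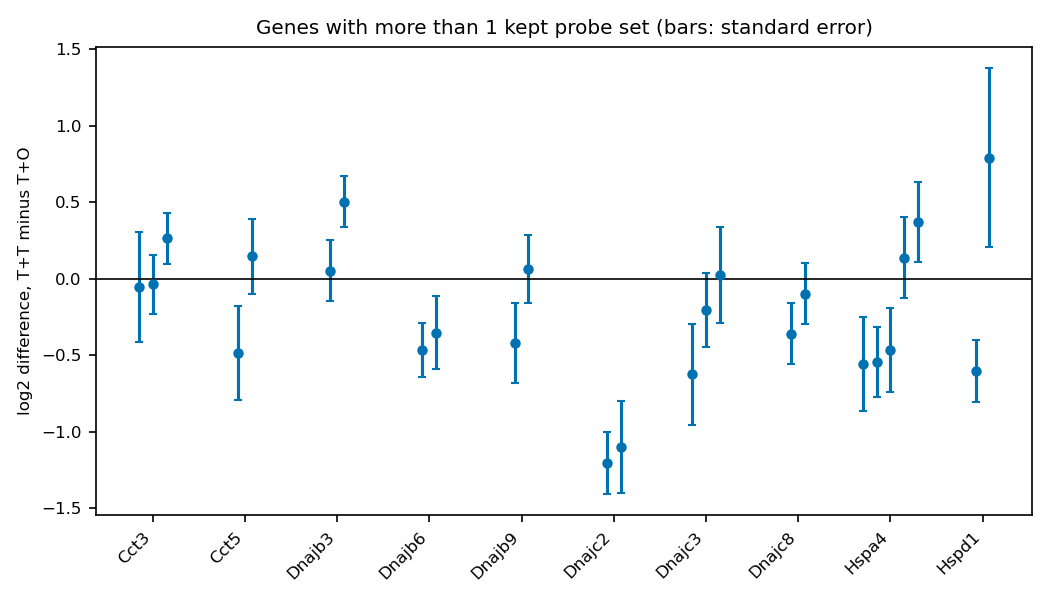
Log2 difference, T+T minus T+O, for each kept probe set of the 10 member genes with more than 1, with the limma standard error as bars. The Dnajc2 pair sits at -1.21 and -1.10, while the 5 Hspa4 probe sets run from -0.56 to 0.37.

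Germ-cell members lay on both sides of T+O. The list held Hspa2, Hspa1l, Hspa4l, Dnajb3, Dnajb8, Dnajb13 and Cct6b, with 8 of 9 probe sets kept. None passed (limma, lowest adjusted p = 0.49), 5 lay above and 3 below 0, and the median was 0.10. Among the other 61 kept members 17 lay above and 44 below 0, with a median of -0.11. This contrast between the lists was not tested, and the others include Hsp90aa1, at -0.86, which is abundant in germ cells. Hspa2 had 1533 in T+O and 1752, 1956 and 1838 in T+T, above T+O on every T+T array. Its difference was 0.27, with a 95% interval from -0.12 to 0.65 (limma, adjusted p = 0.77). Hspa1l, the spermatid HSP70, had 790.1 against 994, 1018 and 691. Only replicate 3 lay below T+O, and the difference was 0.17 ± 0.24 (SE).

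Hspa4l, an HSP110 needed for male fertility, was the only kept germ-cell probe set with every T+T array below T+O. It had 1064 in T+O and 572, 847 and 914 in T+T, a difference of -0.48 ± 0.27 (SE; limma, adjusted p = 0.73). Without T+T replicate 1 it was -0.27. Dnajb3, a J protein of spermatids, had 2 kept probe sets. Its probe set 97481_r_at had 667 against 933, 1010 and 909, all above T+O, with a difference of 0.50 ± 0.17 (SE; limma, adjusted p = 0.49). Probe set 97480_f_at had 1722 against 1841, 2015 and 1537, and its groups overlapped at a difference of 0.05. The 3 other germ-cell genes lay near 0. Dnajb8 had 1008 in T+O and 1031, 1114 and 862 in T+T. Dnajb13, which belongs to the radial spokes of the flagellum, had 803 against 954, 955 and 775. Cct6b, the testis form of a chaperonin subunit, had 1119 against 1153, 1096 and 982. All 3 overlapped T+O, with differences of -0.02, 0.15 and -0.06. Beside these values, 1 of 4 kept spermatocyte marker probe sets (Sycp1), 1 of 6 for spermatogonia (Dazl 94750_at) and none of 9 for spermatids were at least 1.5-fold lower on every T+T array, where 2.21% of all kept probe sets were. Sycp1, of the synaptonemal complex, had 389.9 in T+O and 13.5, 38.5 and 36.2 in T+T. The 3 other spermatocyte probe sets lay above 0, and Ccna1, the meiotic cyclin, had 256 against 423, 425 and 316. The other Dazl probe set, 160357_at, overlapped T+O, with 66.0 against 54.9, 75.0 and 71.0.

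The mitochondrial pair Hspd1 and Hspe1 share the stretch shown above, and the difference between their values was not tested. Hspd1 probe set 93277_at had 235 in T+O and 139, 146 and 169 in T+T, all lower, with a difference of -0.60 ± 0.20 (SE; limma, adjusted p = 0.49). Hspe1 had 175 against 159.9, 161 and 166, at -0.10 with a 95% interval from -0.54 to 0.34. The second Hspd1 probe set, 161140_r_at, was dim in T+O at 10.6 and had 9.55, 35.8 and 40.6 in T+T. It passed the filter only through T+T replicates 2 and 3, and its difference was 0.79 ± 0.59, or 1.24 without T+T replicate 1. Of 7 kept probe sets for mitochondrial chaperones and proteases outside the rule, none passed in limma. They ranged from -0.22 for Grpel2 to 0.23 for Clpb.

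J proteins of class A, the closest relatives of bacterial DnaJ, were measured by 3 probe sets. Dnaja2 had 178 in T+O and 121, 125 and 128 in T+T, close together and all lower, with a difference of -0.48 ± 0.20 (SE; limma, adjusted p = 0.61). Dnaja1, whose loss in mice disturbs androgen signalling in Sertoli cells, had 173 against 122, 163 and 239 and overlapped T+O. Dnaja3, the mitochondrial class A protein, had 156 against 188, 180.4 and 195, all higher, at 0.25 ± 0.19.

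Class B held 12 kept probe sets, 6 on each side of 0. Dnajb1, the heat-inducible partner of HSP70, had 489 in T+O and 761, 617 and 519 in T+T. All its T+T arrays were above T+O, with a difference of 0.35 ± 0.23 (SE; limma, adjusted p = 0.79) that was 0.21 without T+T replicate 1. Dnajb6, which keeps aggregation-prone proteins soluble, had 874 against 662, 661 and 572 on probe set 104625_at and 736 against 461, 588 and 698 on 96120_at. Both were below T+O on every T+T array, at -0.47 ± 0.18 (limma, adjusted p = 0.58) and -0.35 ± 0.24, the latter -0.20 without T+T replicate 1. Among the class B members not yet described, Dnajb2, a neuronal J protein that sorts clients to the proteasome, had 635 against 574, 531 and 476. Dnajb4, a cytosolic relative of Dnajb1, had 216 against 142, 319 and 243 and overlapped T+O. Of the 4 genes with a heat shock element match, Hsph1, Dnajb6 and Hspe1 lay below T+O on every T+T array and kept probe set. Hspd1 did so on 1 of 2 probe sets, and the Hspe1 difference was only -0.10. By comparison, 23.7% of all kept probe sets and 28 of the 69 kept members lay below T+O on every T+T array. Hspd1 and Hspe1 share a single stretch, so the 4 genes hold 3 separate elements, and none of their probe sets passed. A missing match can mean no window or a form other than the exact motif searched. Of inducible members without a match, Dnajb1 lay above T+O on every T+T array and Hsp90aa1 below it, while Hspa1a and Hspa1b overlapped. Whether the element bears on these values was not tested. The heat shock factor Hsf2, which acts in spermatogenesis, had 57.4 in T+O and 26.1, 23.1 and 35.1 in T+T, at -0.84 ± 0.34 (limma, adjusted p = 0.60). The factor-binding protein Hsbp1 had 365 against 507, 388 and 324.

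Class C, the most varied, held 18 kept probe sets, 13 below 0 and 5 above, with a median of -0.21. Dnajc2 gave the lowest values. Dnajc5, the cysteine string protein of secretory vesicles, gave the highest, with 65.2 in T+O and 79.7, 93.7 and 95.3 in T+T, at 0.40 ± 0.23 (SE; limma, adjusted p = 0.74). Dnajc7, which shuttles clients between HSP70 and HSP90, had 587 against 492, 493 and 492. This was the tightest set of T+T values of any member, and the difference was -0.25 ± 0.17. Dnajc8, a spliceosome-associated protein, was at -0.36 and -0.10 on its probe sets, and the histone chaperone Dnajc9 was at -0.22. The remaining class C members lay between -0.27 for Dnajc10, a reductase of the endoplasmic reticulum, and 0.30 for Dnajc17, apart from Dnajc3 and Dnajc21.

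Kept probe sets of endoplasmic reticulum members either lay below T+O on every T+T array or overlapped it. Dnajc3, which binds BiP and restrains the kinase PERK, had 63.4 in T+O and 27.0, 44.2 and 43.6 in T+T on probe set 94343_at, a difference of -0.63 ± 0.33 (SE). Its other kept probe sets were at -0.21 and 0.02. Dnajb9, a J protein induced by unfolded protein, had 269 against 232, 309.5 and 311 on 96679_at and 96.9 against 57.5, 70.2 and 83.8 on 96680_at, at 0.06 and -0.42. Dnajb11 had 178 against 123, 145 and 156, all lower, at -0.32 ± 0.22. Of the 3 genes with a stress element match, Hsp90b1 lay lower on every T+T array, Hspa5 overlapped T+O, and Dnajc3 did either by probe set. None of 17 kept probe sets for other folding factors of this compartment passed in limma, with 10 above and 7 below 0. Pdia6, a disulfide isomerase, was highest, with 165 in T+O and 334, 366 and 329 in T+T on 94208_at, at 1.01 ± 0.18 (limma, adjusted p = 0.20). Its other kept probe sets were at 0.56 and 0.04. The lectin chaperone of spermatogenic cells, Clgn, had 1305 against 658, 1024 and 999.8 on 104029_at, and 68.1 against 66.4, 3.45 and 86.6 on 161734_r_at, where the groups overlapped.

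Most chaperonin subunits lay near T+O. Of 12 kept probe sets for Tcp1, Cct2 to Cct8 and Cct6b, none had an unadjusted p under 0.05 in limma (lowest adjusted p = 0.76), 9 were below and 3 above 0, and the median was -0.06. Tcp1, the alpha subunit, had 239 in T+O and 363, 277 and 285 in T+T, all higher, at 0.35 ± 0.21 (SE), or 0.23 without T+T replicate 1. Cct5 was split, with 1256 against 1646, 1505 and 1084 on 93295_at and 99.5 against 84.9, 49.1 and 75.1 on 161514_at, at 0.15 and -0.49. Without T+T replicate 2 the latter was -0.28. Cct3 was at 0.26, -0.04 and -0.05 on its 3 probe sets, of which 98446_s_at had 966 against 1139, 1225 and 1121. Cct6a was at -0.29, with 227 against 198, 177 and 177. Cct2, Cct4, Cct7 and Cct8 lay between -0.16 and -0.02. Of 6 kept prefoldin and chaperonin cofactor probe sets none passed in limma, with Vbp1 lowest at -0.51 and Pfdn5 highest at 0.57.

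Only 2 of the 5 probe sets for small heat shock proteins passed the filter. Hspb8 had 56.9 in T+O and 51.6, 52.1 and 55.7 in T+T, and Hspb2 had 98.1 against 90.8, 75.2 and 107, at -0.08 and -0.11. Hspb1, under the filter, had 7.32 against 14.7, 15.8 and 15.1, and no difference was computed for it. Hspb11 had 105 against 76.3, 82.0 and 68.6, all lower, at -0.43 ± 0.23 (SE). Hspbp1 had 173 against 194, 189 and 177, all higher, at 0.10 ± 0.19.

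The 2 arrays whose title and description give the same arm are T+O replicate 1 and T+T replicate 1, the latter with renewed testosterone for 4 hours. Between them, 15 of 69 members lay below T+O by 1.5-fold or more, beside 11% of all kept probe sets, and 2 lay above it by as much, beside 6.83%. This sets a single array against another, so no replicate spread stands behind it. Farthest below were Hsp90b1 at -1.57, the Dnajc2 probe sets at -1.39 and -1.33, and Hsp90aa1 at -1.29. The 2 higher were Dnajb1 at 0.63 and Tcp1 at 0.59. With 1 probe set a gene, 10 of 54 genes were at least 1.5-fold apart. Of the 8 germ-cell members, Hspa4l at -0.88 was the only one past 1.5-fold. Both counts lie near the share of all kept probe sets, of which 11% were lower and 6.83% higher by as much.

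T+T replicate 1 was the lowest of the 4 arrays for 37 of the 69 members (53.6%), where it was lowest for 26.3% of all kept probe sets. T+O was the highest for 28 (40.6%), where it was highest for 23.7% of all. Median differences of the members from T+O were -0.25 on T+T replicate 1, -0.08 on replicate 2 and -0.07 on replicate 3, beside 0.04, 0.02 and 0.04 for all kept probe sets. The spread among T+T arrays was not wider than usual. From the lowest to the highest T+T array the median member ranged 1.29-fold, and the median of all kept probe sets 1.30-fold.

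**Figure D4:**
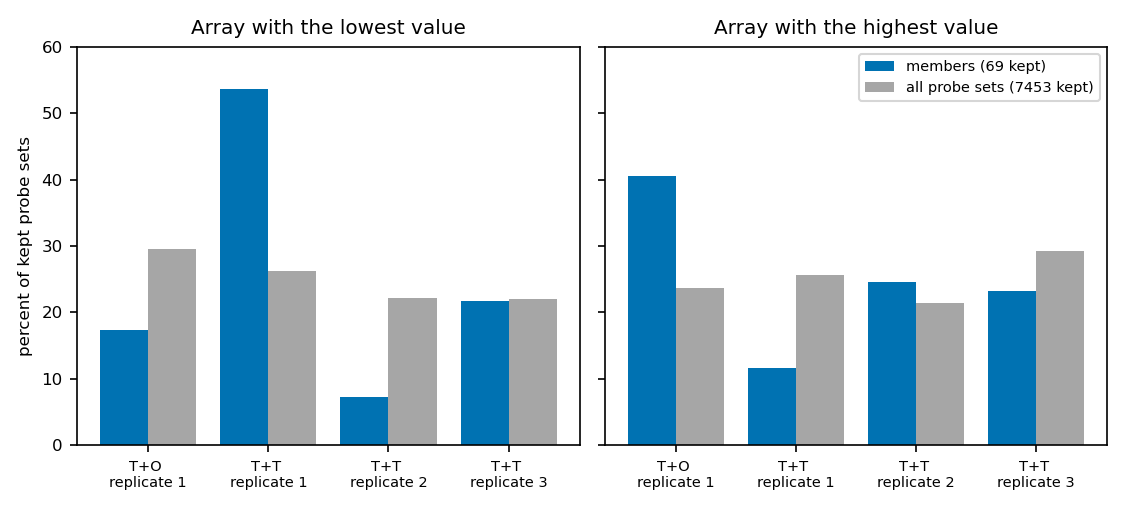
Percent of kept probe sets for which each array had the lowest (left) or the highest (right) value, for the 69 members and all 7453 kept probe sets. T+T replicate 1 was lowest for 53.6% of members against 26.3% of all, and T+O highest for 40.6% against 23.7%.

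If the descriptions rather than the titles hold for T+T replicates 2 and 3, replicate 1 is the sole array with renewed hormone and the remaining 3 are withdrawn. Under this reading none of the members passed in limma (lowest adjusted p = 0.92), beside 0% of all kept probe sets. At least 1.5-fold lower than on all 3 others were 2 members, Hsp90b1 at -1.22 and Hspa14 at -0.88, beside 2.09% of all. None was at least 1.5-fold higher than all 3, beside 0.657%. Dnajc2 was then at -0.57 and -0.75 on its probe sets, with standard errors of 0.43 and 0.42. Hsp90aa1 was at -0.87 ± 0.33, Dnajb1 at 0.49 ± 0.20 and Tcp1 at 0.44 ± 0.20. Hspa2 was at -0.01 ± 0.19.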

How the data were processed

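The deposited table holds linear signal intensities, 1 per probe set and array. The array maker's software and any earlier scaling are not given in the sources used here, and no detection calls were used. From these intensities, without 66 control probe sets, each array was scaled to a common mean after trimming 2% at each end (factors 0.915, 1.15, 1.33 and 0.779 for T+O and T+T replicates 1 to 3). An offset of 10, the 25th percentile, was added before log2. Probe sets with a mean signal above the 40th percentile (22.7) were kept. T+T minus T+O was tested with limma 3.58.1 in R 4.3.3 (lmFit, eBayes with an intensity trend, two-sided, 2 residual and 5.74 prior degrees of freedom), with Benjamini-Hochberg adjustment over all 7453 kept probe sets and a threshold of 0.05. Since T+O has no replicate, its spread was taken from that among T+T arrays, and the number of arrays limits the precision. The procedure was tested on simulated data.

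Symbols came from the platform annotation, updated by gene ID through RefSeq (10817 of 10833 probe sets with a single symbol). Promoter windows are from RefSeq. The array file names no build, so the coordinates given belong to the promoter table alone.

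Members and lists were chosen with earlier results of these data known. Values on each array are given for germ-cell members, members 1.5-fold apart on every T+T array, the extremes of each family and genes whose probe sets differ in sign. Further members named with values were chosen after these were seen. Alternatives changed the scaling, offset, filter, trend, grouping, probe set choice or left out 1 T+T array.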

Additional observations from a re-analysis of the deposited data

How the results depend on the processing

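No member passed the adjusted threshold under any setting except without T+T replicate 1, where 1 did, so that leaving out 1 T+T array gave 0 to 1. Members at least 1.5-fold higher on every T+T array numbered 0 to 1 on leaving out 1 array (1, a Hspd1 probe set, without replicate 1). Those at least 1.5-fold lower numbered 2 to 7 (7 without replicate 3, where only the remaining arrays had to be below T+O), 1 with no scaling and 1 with the brightest probe set of each gene. The shares of all kept probe sets under these changed settings were not computed, so the counts cannot be read against them. In the pair of arrays whose labels match, 17 members were 1.5-fold apart, where 11% of all kept probe sets were lower and 6.83% higher by as much. The count was 32 with no scaling and 10 with the brightest probe set of each gene. Before scaling, T+T replicate 1 was the dimmer array as a whole, with a median of 29.3 against 37.45 for T+O. The share of all probe sets with no scaling was not computed, so the 32 cannot be read as particular to the members. The median of the members stayed below 0 under all settings run, from -0.30 with no scaling to -0.08 with the brightest probe set of each gene. No paired analysis was possible because T+O has a single array, whose number pairs it with nothing.

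No member with a turned sign had passed the test. Quantile scaling turned Dnajb8 to 0.0022 and median scaling turned Hspa8 to -0.0094. The offset at the 50th percentile turned Hspa14 to 0.0082 and Dnajc11 to 0.0064. With no scaling, signs turned for Dnajb13 (-0.062), Hspa4 100352_at (-0.031), Hspbp1 (-0.095), Dnajc3 102415_r_at (-0.14), Hspa1l (-0.043), Cct5 93295_at (-0.065), Dnajb4 (-0.16), Hspa8 (-0.19), Dnajb9 96679_at (-0.14), Dnajc15 (-0.15) and Dnajb3 97480_f_at (-0.16). Reading T+T replicates 2 and 3 as withdrawn, which is another contrast, turned Hspa4 100352_at (-0.030) and 100353_g_at (-0.12), Dnajc3 102415_r_at (-0.11), Dnajb8 (0.059), Cct7 (0.080), Hspd1 161140_r_at (-0.89), Cct3 161238_f_at (0.53) and 98153_at (0.12), Cct5 161514_at (0.21), Cct6a (0.039), Cct6b (0.11), Dnajc5 (-0.062), Dnajb4 (-0.80), Hspa1a (0.22), Hspa8 (-0.10), Dnajb9 96679_at (-0.34), Dnajc15 (-0.078), Dnajb2 (0.078) and Hspa2 (-0.012). Leaving out 1 T+T array gave values on both sides of 0 for Hspa1b (-0.086 to 0.21), Hspa14 (-0.29 to 0.31), Dnajc3 102415_r_at (-0.066 to 0.067), Hspb2 (-0.22 to 0.0047), Dnajb8 (-0.096 to 0.087), Dnajc11 (-0.36 to 0.19), Cct8 (-0.21 to 0.040), Cct2 (-0.16 to 0.031), Cct7 (-0.055 to 0.045), Cct3 161238_f_at (-0.26 to 0.24) and 98153_at (-0.087 to 0.062), Cct6b (-0.11 to 0.0074), Dnajb4 (-0.20 to 0.35), Hspa1a (-0.31 to 0.0027), Dnajc13 (-0.17 to 0.17), Dnajc8 95699_f_at (-0.16 to 0.0035), Hspa8 (-0.020 to 0.060), Dnajb9 96679_at (-0.0067 to 0.20), Dnaja1 (-0.28 to 0.18) and Dnajb3 97480_f_at (-0.034 to 0.16). Dim members such as Hspb1 and Hspa1b are limited by signal over background, which no detection call measured here.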
